A study of Arabidopsis thaliana with 12 samples.

Results

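The genes described here are 90 Arabidopsis thaliana loci, of 32627 loci on the array, whose array annotation holds the words "auxin-responsive" or "SAUR". Loci annotated as Aux/IAA repressors or as auxin-conjugating GH3 enzymes matched the same words in 9 cases and were left out. The rule itself reads annotation text and no measured value, but it was set with earlier results of these data known. Of the 90, RefSeq names 77 as SAUR (SMALL AUXIN UP RNA) genes, 9 are other loci annotated as auxin-responsive, and 4 are pseudogenes or fragments. One of these fragments, AT5G34852, is a maturase pseudogene that matched only through the plant name Saururus in its annotation. SAUR30 and SAUR79 did not carry the matching words and are not among the 90. The study held no auxin treatment, so whether the 90 loci respond to auxin in these seedlings was not tested.

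RNA of whole Col-0 seedlings, 10 days old, was hybridised to 12 one-colour arrays. Wild-type seedlings were compared with an insertion line (T-DNA) called gem1 and with a line in which the 35S promoter of a plant virus drives GEM, a GRAM domain gene known for its part in root epidermal cell fate. Abscisic acid (ABA), a hormone that plants make in drought and during seed maturation, was given at 100 µM for 2 hours. Untreated and ABA-treated seedlings of the 3 genotypes made 6 groups, and each group held 2 biological replicates. No group with a mock treatment is labelled, and what handling or the 2 hours alone did cannot be told apart from ABA.

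SAUR genes encode small, short-lived proteins, and many of their transcripts appear within minutes of auxin exposure. Several SAUR proteins, best studied in the group from SAUR19 to SAUR24, inhibit PP2C-D phosphatases. The plasma membrane H+-ATPases then stay phosphorylated and active, the cell wall is acidified and the cell expands. Other SAUR genes are known for roles outside this growth pathway, such as leaf senescence, and ABA at high dose is known to restrain seedling growth.

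All values are log2 expression after RMA, the authors' normalization, and a difference of 1 is a doubling. Array medians lay between 12.16 and 12.22, and the highest value on any array was 15.95, near which changes are compressed. One limma fit over the 12 arrays and all loci gave each difference its standard error (SE) and its p, adjusted by Benjamini-Hochberg over the 32627 loci with a threshold of 0.05. Replicates with the same number shared deviations from their group means, so the fit with the replicate number as a block is given where it changes a call. GEM itself (AT2G22475) read 14.12 to 14.48 on the 4 wild-type arrays, 15.73 to 15.81 on the 4 overexpressor arrays and 14.38 to 14.61 on the 4 arrays labelled gem1 by its first transcript feature. Its second feature read 9.32 to 9.65, 9.38 to 11.98 and 11.16 to 11.62 in the same order. GEM was therefore not lower on the arrays labelled gem1, and the sources used here do not say where the insertion lies relative to the probes. The ABA-induced genes LTI65 (RD29B), RAB18, HAI3 and ABI1 all rose with ABA, by 1.04 to 5.25 averaged over genotypes.

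Marker levels of the whole seedlings moved with treatment for the root. All 6 root markers were lower after ABA (median -0.45), and SCR, CASP1 and PHT1;1 passed the test. PLT1 gave -0.75 (limma adjusted p = 0.0611, and 0.0195 with the replicate block). Their summed level, the log2 of the summed linear values, ran from 17.07 to 17.20 on untreated arrays and from 16.60 to 16.76 on ABA arrays, with no overlap. The 4 shoot markers summed to 17.12 to 17.30 and 17.13 to 17.31, and the 4 seed storage markers to 11.88 to 14.83 and 12.13 to 16.44, both overlapping. The shoot sum rests mostly on RBCS1A and CAB1, each with a mean of 15.86 beside a highest value of 15.95. A change in it could therefore hardly have been seen. The dimmer shoot markers LHCB2.1 and CAB2 gave 0.02 (SE 0.15) and 0.09 (SE 0.33). The root markers had mean levels from 10.95 to 15.36, and the seed marker SESA1, with a mean of 8.23 and a range from 7.79 to 8.80, lay near the bottom of the scale, whose lowest value was 6.99. In whole seedlings, fewer cells of a type and less RNA per cell cannot be told apart, and the part of the root marker shift in the falls described here was not tested.

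The 90 loci were dim beside the rest of the array. Their mean levels had a median of 10.56, against 12.18 over all loci, and 21 of them lay under 9. SAUR25 had the lowest mean, at 7.59, and AT5G35735, annotated as an auxin-responsive family protein, the highest, at 15.27. Each value rests on 3 probes in 32 loci and on 4 probes in 58. The probe sets differ between genes, so levels are not compared from gene to gene.

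After ABA, averaged over the 3 genotypes, more of these genes were lower than higher. SAUR1 fell by 2.20, SAUR3 fell by 1.77, SAUR5 fell by 1.55 and SAUR9 fell by 1.31, while AT5G47530 and SAUR35 rose by 2.65 and 2.00. Of the 90 loci, 68 had a lower and 22 a higher mean, with a median of -0.25 against -0.03 over all loci. The median of the 90 moved to -0.15 when replicate 1 of ABA-treated wild type was left out, and to -0.17 when replicate 2 of the untreated overexpressor was. The test called 13 lower (14.4%) where 5.20% of all loci were called lower, and 7 higher (7.78%) where 5.60% of all loci were called higher. The excess over the background was thus on the lower side, and the share called higher was near the background. With the replicate block 31 were called lower (background 12.9%) and 9 higher (background 9.27%), and the 20 called without the block were all among these 40. The 77 SAUR genes gave 12 of the 13 falls and 4 of the 7 rises, with a median of -0.32. The other 9 auxin-responsive loci gave 1 fall and 3 rises, with a median of 0.32, and the 4 pseudogenes or fragments gave none and lay between -0.12 and 0.02.

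**Figure D1:**
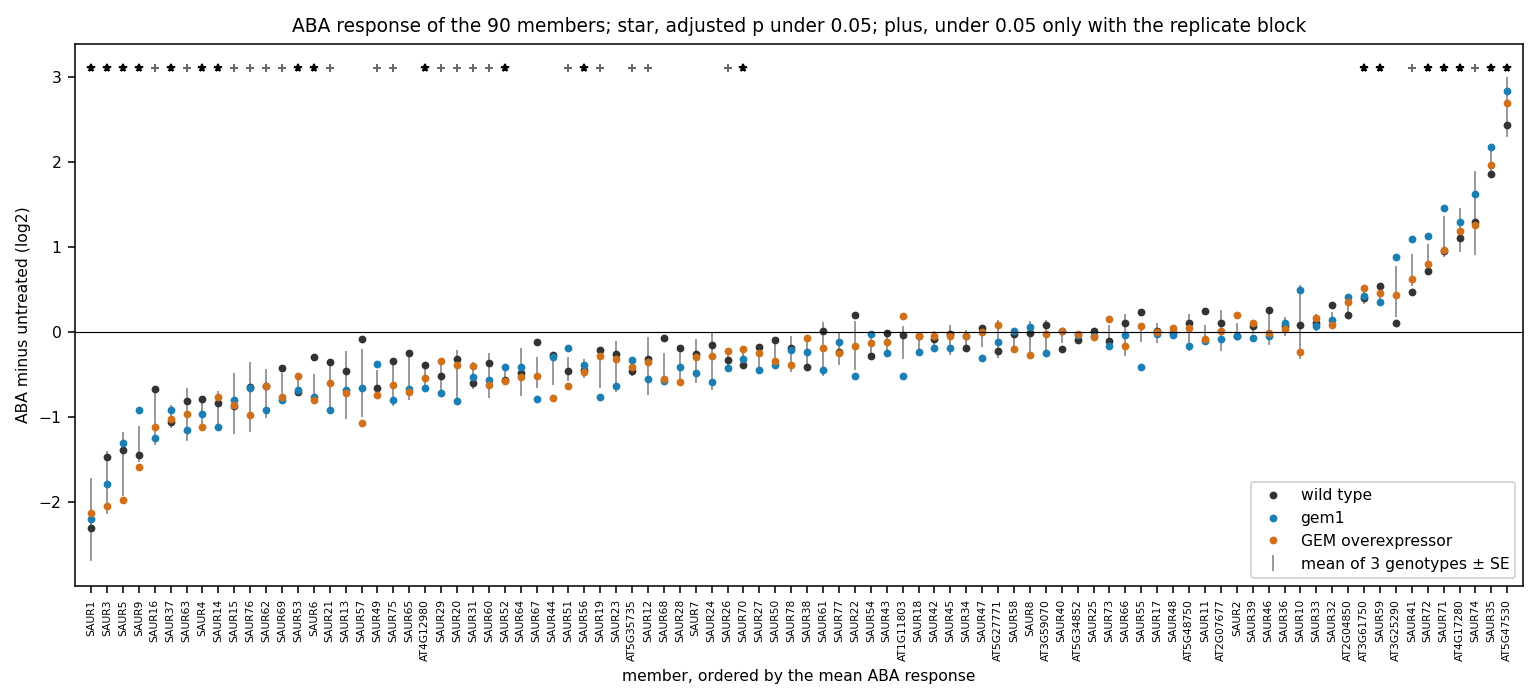
ABA minus untreated (log2, vertical axis) for each of the 90 loci along the horizontal axis, ordered by the mean over genotypes. Dots are the 3 genotypes, grey lines the mean ± SE, stars mark adjusted p under 0.05 and plus signs loci under it only with the replicate block; the response runs from -2.20 for SAUR1 to 2.65 for AT5G47530.

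The same direction held on single pairs of arrays for many of the genes. Taking ABA minus untreated between arrays of the same genotype and replicate number gave 6 differences for each gene. All 6 were below 0 for 30 of the 90 loci (33.3%, against 15.7% of all loci) and above 0 for 9 (10.0%, against 10.8%). In 11 loci (12.2%) all 6 ABA arrays lay below all 6 untreated arrays, where 6.01% of all loci did so, and in 5 (5.56%) they lay above, where 6.14% did. Of the 16 loci without overlap, 14 were among the 20 called. All 20 called loci moved one way in each of the 6 differences. The 20 calls depended on the arrays used, since leaving out a single array took between 4 and 11 of them past the threshold without turning any sign. SAUR4, SAUR9, SAUR35, SAUR37, SAUR52, SAUR53, SAUR59, SAUR72 and AT5G47530 stayed called whichever of the 12 arrays was left out. Of the others, SAUR56 was called in 1 of the 12 fits, SAUR5, SAUR14 and AT3G61750 in 2, AT4G12980 in 3, SAUR1, SAUR71 and AT4G17280 in 4, SAUR70 in 5, SAUR3 in 6 and SAUR6 in 7. With the replicate block kept, 18 of the 20 stayed called in all 12 such fits, SAUR3 in 10 and SAUR56 in 4.

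Genes that lie beside one another on chromosome 4 held the largest falls. SAUR49, SAUR50 and SAUR1 to SAUR5 lie in a row between 16577482 and 16599421 by the array's own annotation, for which the sources used here name no genome build. SAUR1 (AT4G34770, 16591229 to 16591892) read 9.55 and 11.36 on the untreated wild-type arrays of replicates 1 and 2, 9.68 and 10.79 on those labelled gem1 and 9.50 and 12.03 in the overexpressor. With ABA it read 8.00 and 8.32, 7.95 and 8.13, and 8.78 and 8.52 in the same order. The ABA arrays of SAUR1 all lay below the untreated ones, and the untreated level was higher in replicate 2 of each genotype while the ABA level hardly differed. SAUR1 fell by 2.20 (SE 0.49, 4.60-fold, limma adjusted p = 0.0287).

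SAUR3 (AT4G34790) had untreated values from 10.14 to 12.05 with a median of 11.01, and ABA values from 8.69 to 10.21 with a median of 8.92. A single ABA array, replicate 1 of the overexpressor, reached into the untreated range. SAUR3 fell by 1.77 (SE 0.37, 3.41-fold, limma adjusted p = 0.0223). SAUR5 (AT4G34810) ran from 9.99 to 11.99 untreated (median 10.51) and from 8.56 to 9.69 with ABA (median 9.02), without overlap, and fell by 1.55 (SE 0.38, limma adjusted p = 0.0384). SAUR4 (AT4G34800) ran from 8.52 to 9.92 and from 8.08 to 8.62, with a median of 9.24 untreated and 8.18 with ABA, and fell by 0.96 (SE 0.17, limma adjusted p = 0.0117). Its ABA values are near the bottom of the range, so the size of its fall may be understated.

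The other genes of the row did less. SAUR2 (AT4G34780), transcribed from the opposite strand between SAUR1 and SAUR3, stood between 7.60 and 7.99 on all 12 arrays and differed by 0.04 (SE 0.07). At that level a fall could hardly have been seen. SAUR49 gave -0.59 (SE 0.15, limma adjusted p = 0.0506, and 0.0146 with the replicate block). SAUR50, which light induces in cotyledons, gave -0.27 (SE 0.16, limma adjusted p = 0.40) and did not pass with the block either. The replicates of the overexpressor were far apart in SAUR1, SAUR3 and SAUR5. They gave -0.72, -0.73 and -0.88 in replicate 1 and -3.51, -3.36 and -3.07 in replicate 2. In wild type SAUR1, SAUR3 and SAUR5 gave -1.56, -0.68 and -1.68 in replicate 1 and -3.04, -2.25 and -1.09 in replicate 2. For gem1 the values were -1.73, -1.13 and -1.14, and -2.66, -2.45 and -1.46. The gap was thus not limited to the overexpressor in SAUR1 and SAUR3.

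**Figure D2:**
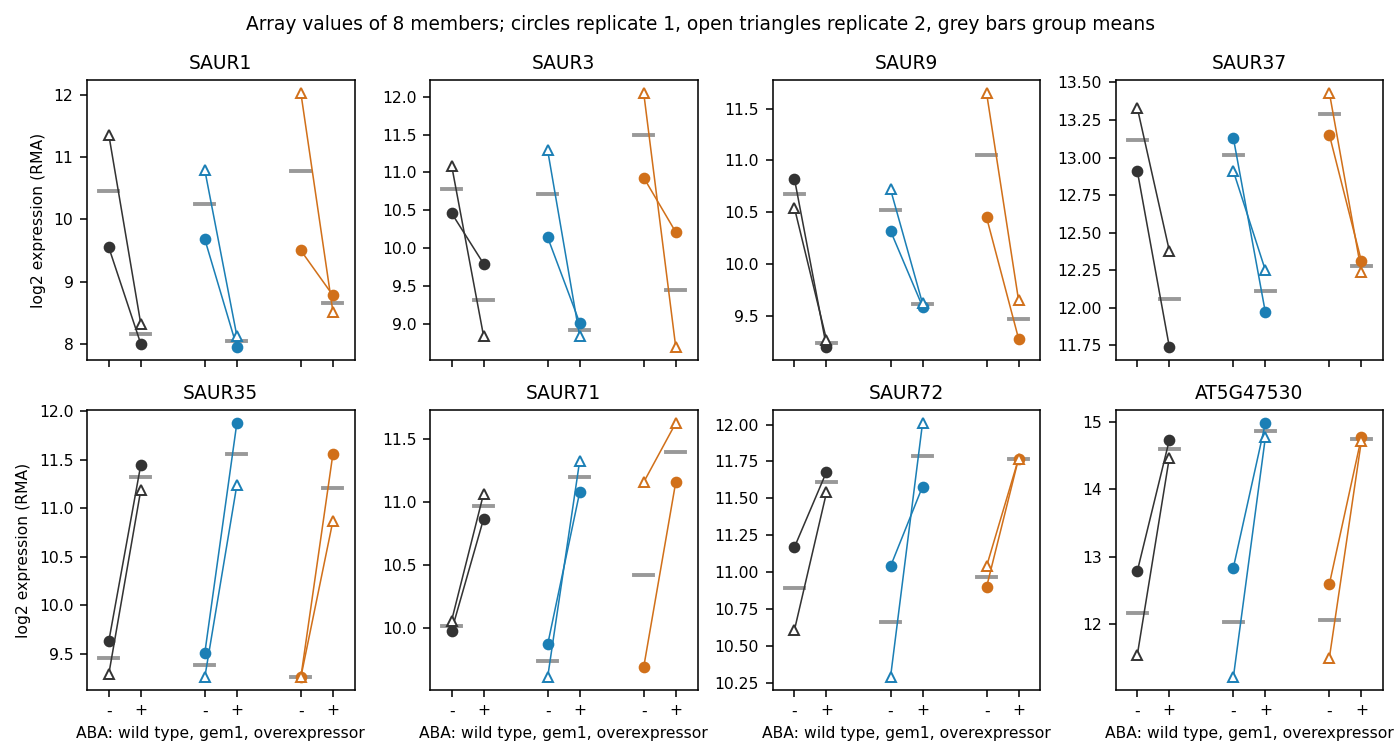
Log2 expression (RMA, vertical axes with separate ranges) of 8 loci without (-) and with (+) ABA in wild type, gem1 and the overexpressor. Filled circles are replicate 1, open triangles replicate 2, lines join arrays of the same number and grey bars are group means; SAUR1, SAUR9 and SAUR37 lie lower on every ABA array, and SAUR35, SAUR72 and AT5G47530 higher.

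A second row on chromosome 4 holds SAUR13 to SAUR16 (18121526 to 18131060), among them SAUR15, one of the first Arabidopsis SAUR genes to be isolated, and SAUR16, which light induces in cotyledons. All 4 were lower after ABA, by 0.62 to 1.01, with a median of -0.87. SAUR14 passed the test. It stood at 13.86 to 14.30 untreated (median 14.12) and 12.72 to 13.94 with ABA (median 13.18), and fell by 0.90 (SE 0.21, limma adjusted p = 0.0333). The single ABA array inside its untreated range was wild-type replicate 2, whose difference was -0.09 against -1.57 in replicate 1. SAUR16 gave -1.01 (SE 0.31, limma adjusted p = 0.0914, and 0.00306 with the replicate block). SAUR15 gave -0.84 (SE 0.36, limma adjusted p = 0.22, and 0.00996 with the block). All 6 differences were below 0 in SAUR14, SAUR15 and SAUR16, and 5 of 6 in SAUR13.

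Falls also passed the test in SAUR genes that lie alone. SAUR9, whose protein binds PP2C-D phosphatases, read 10.32 to 11.65 untreated (median 10.63) and 9.20 to 9.65 with ABA (median 9.43), without overlap. It fell by 1.31 (SE 0.21, 2.49-fold, limma adjusted p = 0.00661). SAUR37 (AT4G31320) read 12.91 to 13.43 untreated (median 13.14) and 11.74 to 12.38 with ABA (median 12.25), again without overlap. Its fall of 0.99 (SE 0.14, 1.99-fold, limma adjusted p = 0.00414) was the most precisely measured of the larger falls, and its 6 differences ran from -1.19 to -0.66. SAUR53, known to promote organ elongation when overexpressed, fell by 0.63 (SE 0.11, limma adjusted p = 0.00925), with differences from -0.76 to -0.46.

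Smaller falls were called in genes with a neighbour and without. SAUR6 on chromosome 2 stood at 14.22 to 14.57 untreated and 13.19 to 14.08 with ABA and fell by 0.62 (SE 0.13). SAUR52 on chromosome 1 stood at 9.68 to 10.16 and 9.26 to 9.61 and fell by 0.51 (SE 0.08). SAUR70 on chromosome 5 fell by 0.30 (SE 0.06) by the brighter of its 2 transcript features. The untreated and ABA arrays of these 3 genes did not overlap, although the SAUR70 groups were less than 0.01 apart. SAUR56 fell by 0.43 (SE 0.11) at a mean level of 7.75, close to the bottom of the scale, and its call was lost without 11 of the 12 arrays.

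The SAUR genes were also read by their position on the chromosomes, which the choice of genes did not use. Taking SAUR loci with at most 15 kb between them as neighbours, 37 of the 77 fell into 8 groups of 2 to 8 genes. Of the 37 with a neighbour, 36 were lower after ABA, with a median of -0.47, 8 falls and 0 rises called by limma, and 21 falls and 0 rises with the block. The 40 without a neighbour divided into 26 lower and 14 higher, with a median of -0.08, 4 falls and 4 rises, and 8 falls and 6 rises with the block. The difference between the 37 and the 40 was not tested. More of the 40 than of the 37 had a mean level under 9, where a fall can hardly be seen. The 2 sets were not matched for level, and the part of level in their difference was not tested. Over all loci 5.20% were called lower and 5.60% higher, and 12.9% and 9.27% with the block. Neighbouring SAUR genes are alike in sequence, so their probes may share signal and their values are not independent.

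The rows from SAUR19 to SAUR24 (chromosome 5, 5962897 to 5984112) and from SAUR61 to SAUR68 (chromosome 1, 10301152 to 10323189) hold near-identical genes whose shares of the signal are uncertain. They include the best studied growth-promoting SAUR genes, SAUR19 and SAUR63. In the first row all 6 genes were lower after ABA, by 0.16 to 0.62, and none passed, with limma adjusted p from 0.276 to 0.95. With the replicate block SAUR19, SAUR20 and SAUR21 were called lower, with limma adjusted p from 0.0105 to 0.0321. In the second row all 8 were lower, by 0.03 to 0.97, and none passed, with limma adjusted p from 0.0934 upward. SAUR63 gave -0.97 (SE 0.31) and SAUR62 -0.72 (SE 0.29), both called with the block (limma adjusted p = 0.0132 and 0.00344). Their 6 differences were all below 0, as were those of SAUR19, SAUR20 and SAUR21. Every other gene of both rows had differences on both sides of 0, from 1 above 0 in SAUR24 to 3 in SAUR66. In overexpressor replicate 1 the second row had a median of 0.04, with 5 of its 8 genes above 0. In wild-type replicate 2 the first row had a median of 0.06, with 3 of its 6 genes above 0.

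**Figure D3:**
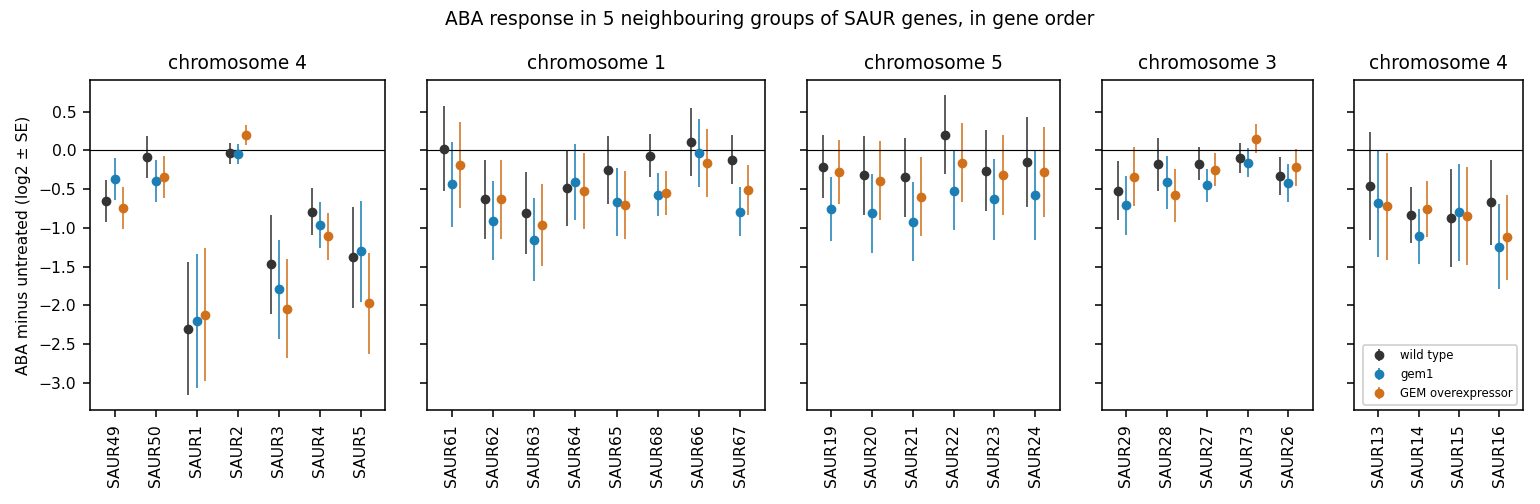
ABA minus untreated (log2 ± SE, vertical axis) for the genes of 5 neighbouring groups, each in gene order along the horizontal axis and coloured by genotype. SAUR1, SAUR3 and SAUR5 lie lowest, SAUR2 between them lies at 0.04 on average, and the genes of the chromosome 5 row lie between -0.16 and -0.62 on average.

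SAUR35 (AT4G12410, chromosome 4, 7342956 to 7343590) rose most among the SAUR genes. It read 9.63 and 9.29 on the untreated wild-type arrays, 9.51 and 9.26 on those labelled gem1 and 9.26 on both in the overexpressor. With ABA it read 11.45 and 11.19, 11.88 and 11.24, and 11.56 and 10.87. Every ABA array thus stood more than 1 above every untreated array. SAUR35 rose by 2.00 (SE 0.16, 3.99-fold, limma adjusted p = 0.000416). Without the replicate block it was also the one member called in each genotype alone, a call that single arrays decided, as given with the single genotypes.

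The SAUR41 subfamily of SAUR40, SAUR41, SAUR71 and SAUR72, named after a gene that promotes cell expansion, held 2 of the 4 SAUR rises. SAUR71 (AT1G56150) ran from 9.61 to 11.16 untreated (median 9.93) and from 10.87 to 11.63 with ABA (median 11.12). An untreated overexpressor array, replicate 2, lay inside the ABA range. SAUR71 rose by 1.13 (SE 0.24, 2.19-fold, limma adjusted p = 0.0234). SAUR72 (AT3G12830) ran from 10.29 to 11.17 and from 11.54 to 12.01, without overlap, and rose by 0.88 (SE 0.16, limma adjusted p = 0.0125). SAUR41 gave 0.73 (SE 0.19, limma adjusted p = 0.0522, and 0.0164 with the replicate block), with all 6 differences above 0. SAUR40 stood at 7.97 to 8.43 on all arrays and gave -0.06 (SE 0.07).

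SAUR59 rose by 0.45 (SE 0.07, limma adjusted p = 0.00668), from 14.17 to 14.60 untreated to 14.79 to 15.07 with ABA, without overlap and close to the compressed top of the scale. SAUR74 (AT3G12955) gave 1.40 (SE 0.49, limma adjusted p = 0.131, and 0.00107 with the block). Replicates of SAUR74 stood apart by level: replicate 1 went from 8.64 to 9.08 untreated to 10.49 to 10.59 with ABA, and replicate 2 from 7.65 to 8.03 to 8.60 to 9.12. All 6 of its differences were above 0, from 0.57 to 1.95.

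Some other SAUR genes, most of them with known roles, showed no change called without the replicate block. SAUR36, which promotes leaf senescence, gave 0.07 (SE 0.11) at levels of 11.08 to 11.87. SAUR32, which is expressed in the apical hook, gave 0.18 (SE 0.06, limma adjusted p = 0.129). SAUR76 to SAUR78, whose proteins bind ethylene receptors, gave -0.76 (SE 0.41), -0.19 (SE 0.19) and -0.26 (SE 0.21), and SAUR76 was called with the block (limma adjusted p = 0.0179). For SAUR10 the estimate of 0.12 had an SE of 0.43, so a change of that order in either direction could not be seen.

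The 9 other auxin-responsive loci carry little annotation beyond that word. The array annotation of AT4G17280 names DOMON and cytochrome b561 domains, which are found in membrane proteins that pass electrons from ascorbate, and gives AT5G47530 as its closest Arabidopsis match. Both rose. AT5G47530 (chromosome 5, 19281374 to 19283061) read 12.79 and 11.55 on untreated wild-type arrays, 12.84 and 11.22 on those labelled gem1, and 12.60 and 11.51 in the overexpressor. With ABA it read 14.73 and 14.47, 14.98 and 14.77, and 14.77 and 14.72. The untreated replicates stood more than 1 apart in every genotype while the ABA arrays came within 0.51 of one another. AT5G47530 rose by 2.65 (SE 0.35, 6.29-fold, limma adjusted p = 0.00316).

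AT4G17280 (chromosome 4, 9678625 to 9680389) ran from 13.79 to 15.02 untreated (median 14.51) and from 15.60 to 15.74 with ABA (median 15.66), without overlap. It rose by 1.20 (SE 0.26, 2.29-fold, limma adjusted p = 0.0243), a size that the top of the scale may have limited. AT3G61750 rose by 0.44 (SE 0.11, limma adjusted p = 0.043), from 14.36 to 14.67 untreated to 14.59 to 15.16 with ABA. AT2G04850, not called without the block, ran from 13.36 to 13.63 untreated and from 13.60 to 14.03 with ABA. Of its same-numbered differences 5 were above 0 and 1 below. AT4G12980 fell by 0.53 (SE 0.12, limma adjusted p = 0.0322), from 14.82 to 15.43 untreated to 14.38 to 14.83 with ABA. AT5G35735 ran from 15.42 to 15.51 untreated and from 14.69 to 15.31 with ABA, without overlap, but its difference of -0.40 (SE 0.11) passed only with the block (limma adjusted p = 0.0649, and 0.0263 with it).

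The ABA response in each genotype alone rests on 2 arrays against 2. In each genotype SAUR35 was the single locus called higher, where 1.06% of all loci were called higher in wild type, 1.18% on the arrays labelled gem1 and 1.19% in the overexpressor. SAUR35 rose by 1.86 (SE 0.28, limma adjusted p = 0.0265), 2.18 (adjusted p = 0.0137) and 1.96 (adjusted p = 0.021) in that order. The call was lost in wild type without any 1 of its 4 arrays or either untreated overexpressor array, with adjusted p from 0.053 to 0.174. It was lost for gem1 without untreated replicate 2 or either ABA-treated array (0.0604 to 0.104), and for the overexpressor without either untreated array or ABA-treated replicate 1 (0.0867 to 0.15). None was called lower by limma, against 0.306%, 0.273% and 0.365% of all loci, while 10, 14 and 15 were lower at an unadjusted p under 0.05 (background 6.35%, 4.60% and 6.03%). At the same unadjusted p, 6, 7 and 7 were higher (background 5.61%, 5.84% and 5.76%). With the block 5, 10 and 8 were called lower (background 2.69%, 1.83% and 2.35%) and 4, 3 and 3 higher (3.33%, 3.72% and 3.50%). These counts rest on single arrays. With the block and 1 array left out, the falls ran from 1 to 7 in wild type, reaching 1 without any 1 of its 4 arrays. They ran from 0 to 9 for gem1, with 0 without ABA-treated gem1 replicate 2, and from 0 to 8 in the overexpressor, with 0 without replicate 2 of either its untreated or its ABA-treated arrays. The rises ran from 1 to 4, 1 to 5 and 2 to 3. SAUR53 and SAUR37 were among those lower in all 3 genotypes with the block, and SAUR74, SAUR35 and AT5G47530 among those higher. The medians over the 90 loci were -0.17, -0.33 and -0.23. The wild-type median changed to 0.01 without ABA-treated wild-type replicate 1 and to -0.02 without untreated replicate 2, and to -0.29 and -0.36 without untreated replicate 1 and ABA-treated replicate 2. The overexpressor median moved to -0.03 without its untreated replicate 2 and to -0.45 without its untreated replicate 1, and the gem1 median to -0.19 without ABA-treated gem1 replicate 1 and -0.20 without untreated gem1 replicate 2.

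The 2 replicate sets differed in how far some genes fell. Averaged over genotypes, SAUR1 gave -1.33 in set 1 and -3.07 in set 2, and SAUR3 -0.85 and -2.69. AT5G47530 gave 2.08 and 3.23, and AT4G17280 gave 0.71 and 1.68. SAUR35 (2.16 and 1.83), SAUR37 (-1.06 and -0.93) and SAUR53 (-0.64 and -0.62) were alike in both. SAUR14 (-1.24 and -0.56) and SAUR69 (-1.04 and -0.27) were further below 0 in set 1. SAUR69 ran from 10.73 to 11.46 untreated and from 10.20 to 10.72 with ABA, and was not called without the block. All 20 called loci kept their sign in both sets.

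**Figure D4:**
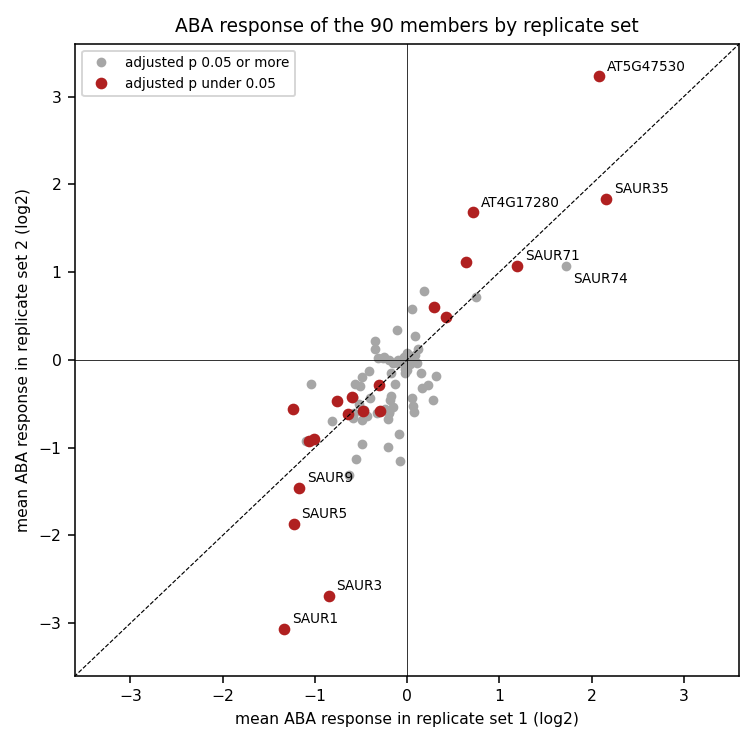
Mean ABA minus untreated over the 3 genotypes (log2) in replicate set 1 (horizontal axis) and set 2 (vertical axis) for the 90 loci, red where the adjusted p is under 0.05, with a dashed line of equality. SAUR1 and SAUR3 lie far below the line at -3.07 and -2.69 in set 2, while SAUR35 lies near it.

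Levels also differed between the replicate sets whatever the treatment. In replicate 2, 22 of the 90 loci were higher in all 6 groups (24.4%, against 24.2% of all loci) and 9 were lower in all 6 (10.0%, against 19.5%). In the row from SAUR19 to SAUR24, the median difference of replicate 2 from replicate 1 was 0.27 to 1.24 over the 6 groups. In that from SAUR61 to SAUR68 it was 0.36 to 1.02 in 5 groups and -0.11 in the ABA-treated overexpressor. The share of the 90 loci higher in replicate 2 in all 6 groups was thus near that of all loci, and the share lower in all 6 was smaller. Group by group, the median difference of the 90 was 0.19 to 0.29 in 5 groups and 0.03 in the ABA-treated overexpressor. Over all loci the group medians were -0.02 to 0.03.

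Neither altered line differed from wild type past the threshold in any of the 90 loci. The comparisons of the lines share the wild-type arrays, so they are not independent of each other. Averaged over treatments, the arrays labelled gem1 gave a median of 0.02, with 47 loci higher and 43 lower, and a range from -0.51 (SAUR57) to 0.28 (SAUR66). By limma 0 of the 90 were called, with or without the block, as in all loci (background 0%). At an unadjusted p under 0.05, 0 were higher and 1 was lower (background 0.285% and 0.279%). That locus was SAUR55, which read 14.58, 14.86, 14.20 and 14.42 on the 4 arrays labelled gem1 (untreated replicates 1 and 2, then ABA) and 14.81, 14.67, 14.92 and 15.05 in wild type. Its difference was -0.35 (SE 0.10, limma adjusted p = 1.0), with the ABA-treated arrays apart and the untreated ones overlapping. The extremes depended on single arrays, and leaving out each in turn moved SAUR57 between -0.81 and -0.21 and SAUR66 between 0.06 and 0.51.

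In the overexpressor the median was 0.11, with 62 loci higher and 28 lower, where 47.6% of all loci were higher. Again 0 of the 90 were called by limma, with or without the block, against 0.00306% of all loci called higher and 0% lower. At an unadjusted p under 0.05 there were 3 higher and 0 lower (background 0.261% and 0.306%), and at the same unadjusted p with the block 19 higher and 4 lower (background 0.919% and 1.37%). That last rule gave 0 higher and 1 lower for gem1, where 373 and 346 of the 32627 loci passed. Neighbouring SAUR genes may share probe signal, so the 19 are not independent of each other. The largest differences were 0.63 (SE 0.36) for SAUR22 and 0.62 (SE 0.31) for SAUR66 on the higher side, and -0.26 (SE 0.15) for SAUR6 and -0.22 (SE 0.15) for SAUR42 on the lower, each with adjusted p = 1.0. With each array left out in turn they ran from 0.35 to 0.91, 0.38 to 0.86, -0.40 to -0.13 and -0.32 to -0.12 in that order. All 8 genes from SAUR61 to SAUR68 had higher means, by 0.39 to 0.62, and all 6 from SAUR19 to SAUR24, by 0.16 to 0.63. On the arrays labelled gem1 the same 8 genes also had higher means than wild type, by 0.06 to 0.28. The same 6 genes there ran from -0.02 to 0.16, with 4 higher and 2 lower.

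The differences of the overexpressor from wild type were not the same on every array pair. For SAUR61 to SAUR68 the median difference from wild type was 0.35 and 0.92 in untreated replicates 1 and 2, 0.87 in ABA-treated replicate 1 and 0.00 in ABA-treated replicate 2, where 4 genes were higher and 4 lower. For SAUR19 to SAUR24 it was 0.43, 0.35, 0.70 and -0.23 in the same order. Over the 90 loci it was 0.05, 0.22, 0.28 and -0.02. The ABA-treated replicate 2 pair thus stood apart from the other 3 pairs in both rows. For gem1 minus wild type the medians in the same order were 0.29, 0.41, 0.24 and -0.18 for SAUR61 to SAUR68. For SAUR19 to SAUR24 they were 0.25, 0.35, 0.01 and -0.46. The ABA-treated replicate 2 pair was thus the lowest for gem1 too, and both lines share its wild-type array.

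**Figure D5:**
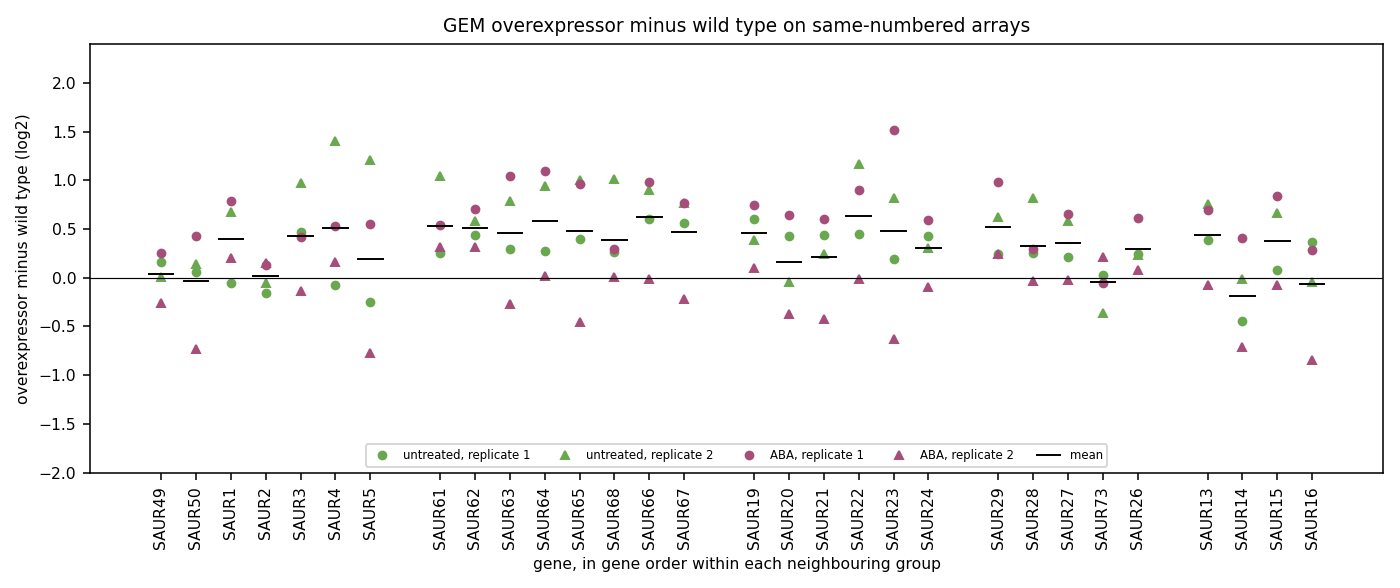
GEM overexpressor minus wild type (log2, vertical axis) on arrays of the same treatment and replicate number, for the genes of 5 neighbouring groups along the horizontal axis; green is untreated, purple ABA-treated, circles replicate 1, triangles replicate 2, and bars the mean. For SAUR61 to SAUR68 the ABA-treated replicate 2 triangles lie on both sides of 0, with a median of 0.00, while the other 3 points of each gene lie above 0.

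The ABA response did not differ between genotypes past the threshold in any of the 90 loci. By limma 0 were called for gem1 and 0 for the overexpressor, with or without the block, and 0% of all loci were. At an unadjusted p under 0.05, 1 locus was lower and 0 were higher for gem1 (background 0.414% and 0.224%), and 0 were lower or higher for the overexpressor (background 0.178% and 0.371%). The 1 locus was SAUR55 (-0.65, SE 0.19, adjusted p = 1.0). With the block, the same unadjusted p gave 0 higher and 3 lower for gem1, where 446 and 440 of the 32627 loci passed. For the overexpressor it gave 0 higher and 1 lower, where 449 and 213 of all loci passed. The largest differences of response for gem1 were -0.72 (SE 0.72) for SAUR22 and -0.67 (SE 0.45) for SAUR67, and 0.77 (SE 0.74) for AT3G25290 and 0.62 (SE 0.47) for SAUR41. For the overexpressor they were -0.99 (SE 0.97) for SAUR57 and -0.59 (SE 0.92) for SAUR5, and 0.34 (SE 0.44) for SAUR38 and 0.32 (SE 0.74) for AT3G25290. Single arrays moved these values widely. With each array left out in turn, the response difference for gem1 ran from -1.28 to -0.15 in SAUR22, -0.96 to -0.37 in SAUR67, -0.03 to 1.57 in AT3G25290 and 0.36 to 0.87 in SAUR41. That for the overexpressor ran from -1.88 to -0.10 in SAUR57, -1.59 to 0.41 in SAUR5, -0.01 to 0.70 in SAUR38 and -0.08 to 0.73 in AT3G25290. With SE of that size, differences of response as large as the responses themselves could have been missed for SAUR1, SAUR3 and SAUR5.

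Genes that act before and after the SAUR genes were read from lists of the auxin pathway, beside 5.20% of all loci called lower and 5.60% higher, or 12.9% and 9.27% with the replicate block. Among the 6 TIR1/AFB auxin receptors, AFB1 (GRH1) fell by 0.63 (SE 0.08, limma adjusted p = 0.00339) and the other 5 did not pass. Auxin response factors are transcription factors that bind auxin-responsive promoters, some as activators, such as ARF19, and others as repressors, such as ARF4. Of 12 on the list, ARF19 fell by 0.51 (SE 0.07) and ARF4 fell by 0.49 (SE 0.12), and the median of the list was -0.27. Of 14 auxin synthesis genes, YUC6 fell by 1.26 (SE 0.11, limma adjusted p = 0.000563) and TAA1 by 0.53 (SE 0.11), while YUC9 rose by 0.39 (SE 0.07). All 12 auxin carriers of the PIN and AUX1/LAX families were lower (median -0.44), and LAX3 (-1.32, SE 0.09, limma adjusted p = 0.000192), AUX1 and PIN3 fell. The largest difference among the carriers was that of PIN5 (-1.52, SE 0.4, limma adjusted p = 0.0516, and 3.31e-05 with the block). With the replicate block the falls were 3 of the 6 receptors, 5 of the 12 response factors, 5 of the 14 synthesis genes and 8 of the 12 carriers, with 1 rise among the response factors and 1 among the synthesis genes. The root markers were lower on the same arrays, with the summed levels given above, and their part in these falls was not tested.

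The phosphatases that SAUR proteins inhibit and the pumps that these control were read in the same way. Of the 9 PP2C-D phosphatases, AT4G33920 rose by 0.47 (SE 0.08, limma adjusted p = 0.0122), AT5G06750 fell by 0.29 (SE 0.07, limma adjusted p = 0.0499) and the median was 0.02. Of the 11 plasma membrane H+-ATPases, AHA11 alone passed, rising by 0.29 (SE 0.05, limma adjusted p = 0.0127), and the median was again 0.02, against -0.03 over all loci. AHA1 and AHA2, the main seedling pumps, stood between 15.68 and 15.88 on all arrays, at the top of the scale, where little change can be seen.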

How the data were processed

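Each array was deposited as log2 expression values per transcript feature; the submitters' processing notes name RMA, without a version, as the authors' method. The log2 scale was read from the values (6.99 to 15.95). The sources used here name neither the array design nor a genome build. RMA equalises arrays, so a change in total RNA would not be seen.

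Of the 37118 features, the one with the highest mean was kept for each of 32627 loci. Names came from RefSeq (TAIR10.1), which held all 90 members. The members and gene lists were chosen with earlier results of these data known. limma 3.58.1 (R 4.3.3) fitted 6 group means on all 12 arrays (lmFit, eBayes, two-sided, Benjamini-Hochberg over all loci, 6 residual degrees of freedom, 5 with the replicate block). Replicate deviations over all loci correlated in all 15 pairs of groups (r 0.44 to 0.88, median 0.71), so replicate numbers were taken to pair the arrays. Over the 90 members alone the correlation was weaker (r 0.12 to 0.83, median 0.59). On simulated data of the averaged ABA response, with 200 of 32627 loci changed by 2, 91.5% were recovered and 3.7% of calls were false. The simulated arrays had independent noise, whereas the real replicates shared deviations, and most called members moved by less than 2. These rates therefore do not describe the calls made here. Members were named as the largest rises and falls at an unadjusted p under 0.05, at most 12 of each, and 11 rises reached that p. All that passed the threshold, the 2 largest per direction of other contrasts, and 2 neighbouring rows were also named. SAUR2, SAUR10, SAUR13, SAUR36, SAUR40, SAUR49, SAUR50 and SAUR76 to SAUR78 were added after their values were seen. Pathway lists name at most 2 genes each, with YUC9, AUX1, PIN5, AHA1 and AHA2 likewise added. The replicate block, a variance trend, fits of the contrast's groups only, a dim filter, quantile normalization, feature means and each array left out were the alternatives, with the block kept while leaving out an array added after seeing the data. The number of arrays limits the precision.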

Additional observations from a re-analysis of the deposited data

How the results depend on the processing

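For the 90 loci, the averaged ABA response with the replicate block gave 31 falls in place of 13. Also with the replicate block, wild type, gem1 and the overexpressor gave 4, 3 and 3 rises in place of 1 each, and 5, 10 and 8 falls in place of 0. With a variance trend the rises were 2 in wild type and 2 in gem1. When only the groups of a contrast were fitted, which uses fewer arrays, they were 0 in all 3 genotypes, so the SAUR35 calls were lost. Without the dimmest 30% of loci, which removes 40 of the 90, the median was -0.37 for the averaged response, -0.26 in wild type and -0.40 in gem1. Leaving out each array in turn, with and without the block, gave 4 to 10 rises and 5 to 39 falls in the averaged response, with medians from -0.35 to -0.15. Without the block the falls were 5 without ABA-treated gem1 replicate 1, 6 without ABA-treated gem1 replicate 2 or untreated replicate 2 of wild type, 7 without untreated gem1 replicate 2 or ABA-treated overexpressor replicate 2, and 8 without either ABA-treated wild-type array or untreated overexpressor replicate 2. The rises were 4 without untreated or ABA-treated wild-type replicate 2, either ABA-treated gem1 array or ABA-treated overexpressor replicate 2, and 5 or 6 otherwise. In single genotypes without an array, and without the block, there were 0 to 1 rises and 0 to 1 falls in wild type, 0 to 2 rises and 0 falls in gem1, and 0 to 1 rises and 0 to 1 falls in the overexpressor, with medians from -0.36 to 0.01, -0.41 to -0.19 and -0.45 to -0.03. The medians of the genotype differences then ran from -0.06 to 0.05 (gem1) and 0.05 to 0.19 (overexpressor), and of the response differences from -0.22 to 0.05 and -0.19 to 0.10. None of the 90 was called in these 4 contrasts under any setting run. Signs of 6 uncalled values turned without an array. In the response difference for gem1, AT3G25290 ran from -0.03 (without untreated gem1 replicate 2) to 1.57. For the overexpressor, AT3G25290 ran from -0.08 (untreated wild-type replicate 1) to 0.73, SAUR38 from -0.01 (untreated overexpressor replicate 1) to 0.70, and SAUR5 from -1.59 to 0.41 (untreated overexpressor replicate 2). In the averaged response SAUR22 ran from -0.35 to 0.03 (ABA-treated wild-type replicate 1). SAUR66 ran from -0.19 to 0.13, and was above 0, at 0.08, 0.12, 0.10 and 0.13, without untreated wild-type replicate 2, ABA-treated wild-type replicate 1, untreated gem1 replicate 2 or untreated overexpressor replicate 2. The causes were not tested. Signal near the bottom of the scale limits falls of dim genes such as SAUR2, and signal near the top limits rises of AT4G17280 and SAUR59.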
